A study of Rattus norvegicus with 60 samples.

Results

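The miR-183 cluster is a group of 3 microRNAs (miRs), rno-miR-183, rno-miR-96 and rno-miR-182, that were taken from the array by their exact names, with names ending in an asterisk left out. They were 3 of the 350 rat miRs on the array, and no name for an opposite arm of the 3 hairpins (rno-miR-183*, rno-miR-96* or rno-miR-182*) was on it. Whole retinas came from male Long Evans hooded rats. In the ischemia-reperfusion (IR) groups the pressure in the eye was raised to 110 mmHg for 60 min through a needle in the anterior chamber, and the retina was collected at 1 of 5 times of reperfusion (0, 2, 24 or 48 h, or 7d). Sham control rats had the same anesthesia and cannulation without the rise in pressure, and their retinas were collected at matching times. Each of the 10 groups held 6 rats, with 1 single-colour Agilent array per rat, so 60 arrays carried the data. All groups received sodium pentobarbital and drops of tetracaine and tropicamide on the eye, and the labels give no mutation or transgene. In whole tissue, fewer cells of a type and less RNA per cell cannot be told apart.

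A miR is a short RNA that pairs with messenger RNAs mainly through its seed, bases 2 to 8 from the 5′ end, and lowers their output. The miR-183 cluster is transcribed as 1 precursor in photoreceptors and in other sensory cells, such as hair cells of the inner ear. In the mouse retina its members rise in light and fall in the dark, and loss of the cluster leads to degeneration of photoreceptors. Retinal ischemia-reperfusion is used as a model of vascular injury to the eye and harms mainly the inner retina, where ganglion and amacrine cells lie.

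The mature sequences are shown because the 3 miRs share most of their seed, which sets their targets and bears on how far array probes can separate them. They are from RefSeq, build GRCr8, minus strand of chromosome 4, with the seed in capitals.
rno-miR-183 (RefSeq rno-miR-183-5p): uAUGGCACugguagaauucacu
rno-miR-96 (RefSeq rno-miR-96-5p): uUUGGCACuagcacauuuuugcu
rno-miR-182 (RefSeq rno-miR-182): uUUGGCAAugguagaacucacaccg
Of the 7 seed positions, rno-miR-96 and rno-miR-182 shared 6 and differed at position 8. The seeds of rno-miR-183 and rno-miR-96 shared 6 and differed at position 2, and those of rno-miR-183 and rno-miR-182 shared 5. Lined up from the 5′ end without gaps, rno-miR-183 and rno-miR-182 had the same base at 18 of 22 positions, against 13 of 22 for rno-miR-183 and rno-miR-96 and 12 of 23 for rno-miR-96 and rno-miR-182. No other mature rat miR in the RefSeq table had any of the 3 seeds, so no further miR of the array joined the group by its seed. Of the 350 array names, 240 had a match in that table.

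In RefSeq the 3 hairpins lie between the protein-coding genes Nrf1 and Ube2h. rno-miR-183-5p and rno-miR-96-5p start 205 bases apart, and 3627 bases lie between rno-miR-96-5p and rno-miR-182. The array annotation, on build rn4, placed the probes for rno-miR-183 at chr4:57075156-57075173 and chr4:57075156-57075174 and those for rno-miR-96 at chr4:57074951-57074970 and chr4:57074951-57074971. The probe starts were likewise 205 bases apart, while the starts of the opposite arms are 207 bases apart, so the array names were read as the 5p arms. The annotation gave no position for the 3 probes of rno-miR-182.

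All 3 miRs were called detected by the scanner software on 60 of 60 arrays. Their unscaled total signals ran from 1651 to 19390 array units for rno-miR-183, from 990 to 16070 for rno-miR-96 and from 129 to 2251 for rno-miR-182. Signals depend on the probe, so the levels of the 3 miRs were not ranked against each other. Of the other whole-retina markers, rno-miR-124, rno-miR-9, rno-miR-181a and rno-miR-204 were also detected on 60 of 60 arrays. Of the markers of blood cells, rno-miR-142-3p, rno-miR-142-5p and rno-miR-144 were detected on no array. rno-miR-451 and rno-miR-146a were detected on 1 array each, rno-miR-223 on 16 and rno-miR-150 on 23. At 7d rno-miR-150 was detected on 0 of 6 IR and 6 of 6 sham arrays. rno-miR-155 was not on the array.

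The arrays differed in brightness, and brightness moved with treatment. The log2 of the 75th percentile of signal over the 57 miRs that no array failed to detect averaged 8.27 ± 0.57 (SD, n = 6) in IR against 10.4 ± 0.35 (SD, n = 6) in sham at 24 h, and 8.16 ± 0.47 (SD, n = 6) against 10.7 ± 0.24 (SD, n = 6) at 7d. Every array was therefore scaled to that percentile, and the values below are log2 scaled signals. Over 57 miRs this percentile is the signal of a single miR. On some arrays of both treatments that miR was rno-miR-182. Its log2 scaled signal there was 9.67 by construction, so its level and spread were partly set by the scaling. No time point had IR and sham arrays on the same slide, and slides with both treatments (2 of 9) held them from different times, while each of the 3 scans held equal numbers of both at every time. Slide and treatment at a time point thus cannot be told apart by a comparison within a slide. Brightness was entered as a covariate in an alternative fit, and its part in the differences below was not otherwise tested. Without scaling, the IR minus sham log2 differences at 24 h were -1.76 for rno-miR-183, -2.16 for rno-miR-96 and -2.07 for rno-miR-182, beside -2.16 for the median of the 57 miRs.

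rno-miR-183, the nearest neighbour of rno-miR-96, was measured within a narrow range. At 0 h the 6 IR arrays had a lowest, median and highest log2 signal of 12.99, 13.19 and 13.21, and the sham arrays 12.82, 13.04 and 13.13. At 2 h these values were 12.89, 13.08 and 13.32 in IR and 12.75, 12.998 and 13.15 in sham. The groups overlapped at both early times, although 4 of 6 IR arrays at 0 h and 2 of 6 at 2 h lay above every sham array. At 24 h the IR arrays read 13.12, 13.19 and 13.33 and the sham arrays 12.68, 12.76 and 13.11, so that the groups touched but did not overlap. At 48 h the values were 12.89, 12.93 and 13.14 in IR and 12.07, 12.83 and 12.93 in sham. At 7d they were 12.94, 13.02 and 13.09 in IR and 12.48, 12.71 and 12.84 in sham. All 6 IR arrays were above all 6 sham arrays at 7d, and 3 of 6 were at 48 h, when a single sham array (replicate 1) lay far below the rest.

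rno-miR-96, whose seed region is the site of mutations that cause progressive hearing loss, had overlapping IR and sham values at every time. At 0 h its lowest, median and highest log2 signals were 12.33, 12.41 and 12.74 in IR and 11.46, 12.37 and 12.54 in sham. At 2 h they were 12.16, 12.38 and 12.60 in IR and 11.94, 12.23 and 12.40 in sham. The low sham value at 0 h was again a single array (replicate 1), and the other 5 sham arrays read 12.33 or higher. At 24 h the IR arrays read 12.39, 12.45 and 12.69 and the sham arrays 12.26, 12.52 and 12.73. At 48 h the values were 12.13, 12.26 and 12.47 in IR and 11.63, 12.18 and 12.52 in sham. At 7d the IR arrays read 12.31, 12.35 and 12.43, and the sham arrays 12.36, 12.50 and 12.59, so that 5 of 6 IR arrays lay below every sham array.

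rno-miR-182, the member that lies apart from the other two on the chromosome, had overlapping IR and sham values at every time and its widest spread in sham at 48 h. At 0 h its lowest, median and highest log2 signals were 9.67, 9.70 and 9.88 in IR and 9.67, 9.83 and 9.91 in sham. At 2 h they were 9.59, 9.69 and 9.97 in IR and 9.73, 9.84 and 9.88 in sham, and 5 of 6 IR arrays lay below every sham array. At 24 h the IR arrays read 9.64, 9.73 and 9.86 and the sham arrays 9.52, 9.67 and 9.76. At 48 h they were 9.41, 9.51 and 9.79 in IR and 9.66, 9.77 and 10.82 in sham. At 7d they were 9.40, 9.47 and 9.73 in IR and 9.59, 9.66 and 9.71 in sham. The highest of all 60 values, 10.82, was sham replicate 1 at 48 h, the array that was also lowest for rno-miR-183.

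**Figure D1:**
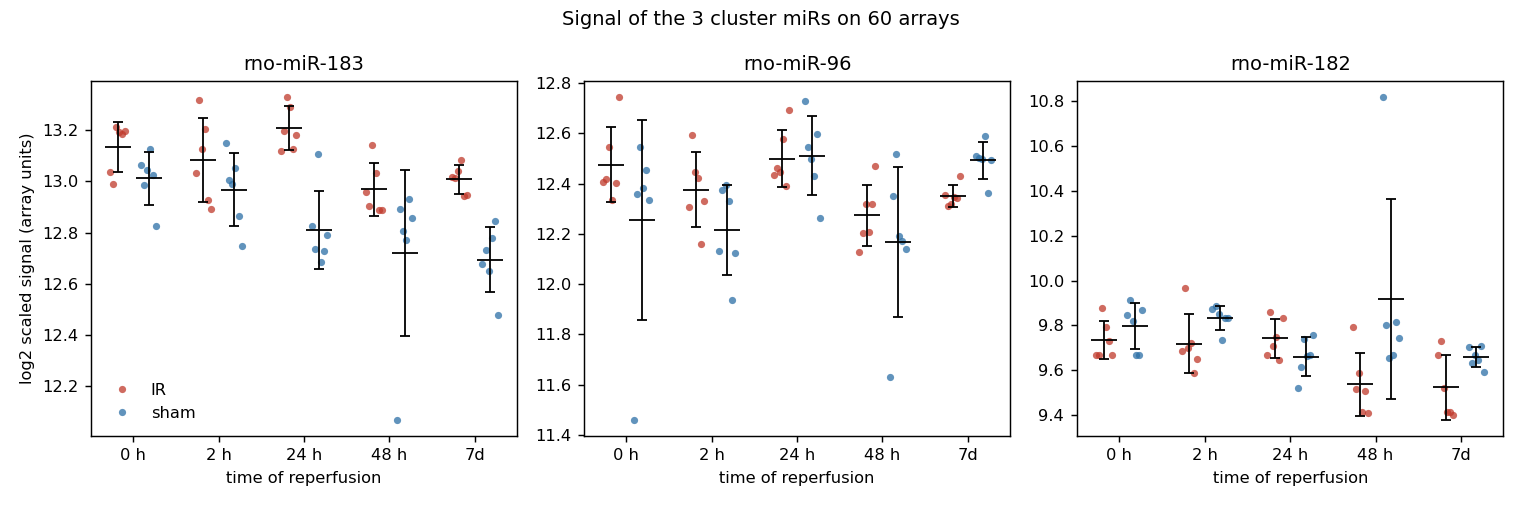
Log2 scaled signal (array units) of rno-miR-183, rno-miR-96 and rno-miR-182 by time of reperfusion. Each point is 1 array (6 per group, red for IR, blue for sham), black bars are the mean and SD, and the vertical axes differ between panels and do not start at 0. The lone low or high sham points are sham 48 h replicate 1 (12.07, 11.63 and 10.82 in the 3 panels) and sham 0 h replicate 1 (11.46 in the middle panel).

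The order of the 10 group means did not separate into steps for any member. For rno-miR-183 the means ran from 13.21 in IR at 24 h to 12.69 in sham at 7d, with the sham groups at 24 h, 48 h and 7d in the 3 lowest places. For rno-miR-96 they ran from 12.51 in sham at 24 h to 12.17 in sham at 48 h, and for rno-miR-182 from 9.92 in sham at 48 h to 9.52 in IR at 7d. The ranges of all 9 pairs of neighbours in the order overlapped for each miR. The gap between neighbours was under the larger of their SDs in 9 of 9 pairs for rno-miR-96 and rno-miR-182 and in 8 of 9 for rno-miR-183, the exception being sham at 2 h over sham at 24 h by 0.16.

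Against sham, none of the 3 miRs passed the study's rule of an absolute fold change of at least 2 with an adjusted p of at most 0.05 at any time, by limma with Benjamini-Hochberg adjustment over the 159 miRs tested. The rule called 6.92% of the tested miRs at 0 h, 5.03% at 2 h, 18.2% at 24 h, 13.8% at 48 h and 18.2% at 7d. It called 0 of 3 members at each time. All 15 differences had a 95% confidence interval inside 2-fold in either direction, the lowest bound being 0.668-fold and the highest 1.49-fold. An unadjusted p under 0.05 was reached by 4 of the 15 differences. Since no estimate reached 2-fold, the exact permutation test could only call 0 at 2-fold. By adjusted p alone it passed 4 of the 15.

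**Figure D2:**
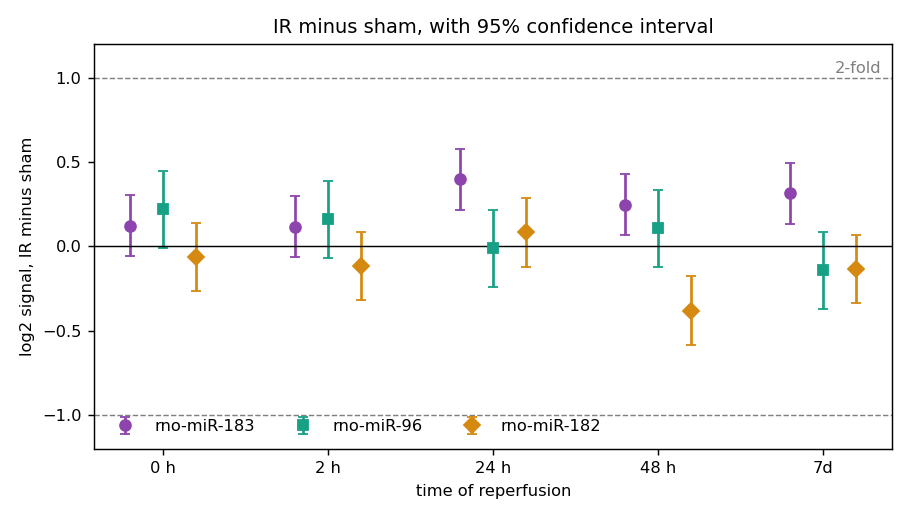
Difference in log2 scaled signal, IR minus sham, for the 3 miRs at each time of reperfusion. Points are limma estimates from 6 arrays against 6, bars are 95% confidence intervals, and dashed lines mark 2-fold. Every interval lies inside the dashed lines, and the estimates lie between -0.38 and 0.40.

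By adjusted p alone, without a fold limit, 1 of 3 members passed at 24 h and 7d and 2 of 3 at 48 h, and none at 0 h and 2 h. The same rule called 12.6% of all tested miRs at 0 h, 7.55% at 2 h, 60.4% at 24 h, 54.7% at 48 h and 59.7% at 7d. The members' counts were not tested against these shares. rno-miR-183 was 0.40 higher in IR at 24 h (log2 difference, SE 0.09, 1.32-fold, limma adjusted p = 0.000245), 0.25 higher at 48 h (SE 0.09, 1.19-fold, adjusted p = 0.0203) and 0.31 higher at 7d (SE 0.09, 1.24-fold, adjusted p = 0.00251). rno-miR-182 fell by 0.38 at 48 h (SE 0.10, 0.768-fold, adjusted p = 0.00132). The differences of rno-miR-183 changed sign at all of these times with normexp (-0.20, -0.49 and -0.29, limma adjusted p = 0.204, 0.00611 and 0.0633). This setting changed the background correction and also averaged log2 signals over probes with equal weight. Equal probe weight without normexp gave 0.10, -0.30 and 0.12. Slide as a block changed the sign at 48 h and 7d (-0.08 and -0.06, against 0.07 at 24 h). The 48 h difference of rno-miR-182 was about 0 with normexp (limma adjusted p = 0.998). With array brightness as a covariate rno-miR-183 kept its sign, with adjusted p of 0.156, 0.196 and 0.564 at 24 h, 48 h and 7d.

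The remaining differences did not pass on this scale. At 0 h they were 0.12 for rno-miR-183, 0.22 for rno-miR-96 and -0.06 for rno-miR-182 (adjusted p from 0.211 to 0.816). At 2 h they were 0.12, 0.16 and -0.12 in the same order (adjusted p from 0.609 to 0.689). For rno-miR-96 they were -0.01 at 24 h, 0.11 at 48 h and -0.14 at 7d (limma adjusted p = 0.939, 0.452 and 0.285). The 7d difference of rno-miR-96 did pass the exact permutation test, which uses only the 12 arrays of that time (adjusted p = 0.00943), where its SD was 0.04 in IR and 0.07 in sham against 0.20 over all groups. For rno-miR-182 they were 0.08 at 24 h and -0.13 at 7d (limma adjusted p = 0.469 and 0.250). Other ways to scale or correct the arrays called some of them. Scaled to the 75th percentile over all miRs, rno-miR-182 was lower in IR at 0 h (-0.38, limma adjusted p = 0.00271), 24 h (-0.23, adjusted p = 0.0481) and 7d (-0.33, adjusted p = 0.00488), and rno-miR-96 at 24 h (-0.32, adjusted p = 0.0375) and 7d (-0.34, adjusted p = 0.0298). With normexp rno-miR-182 was instead higher in IR at 24 h and 7d (0.34 and 0.42, adjusted p = 0.0240 and 0.00627), so its direction at these times turned with the processing. The median of all 159 tested miRs was higher too with normexp, by 0.87 and 1.15 at these times.

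A single array carried much of the 48 h result. Sham 48 h replicate 1 deviated from the other 5 arrays of its group with an SD of 0.72 (log2) over the 57 miRs detected everywhere, the highest of the 60 arrays, whose median was 0.18. It was 1.08 higher for rno-miR-182, 0.78 lower for rno-miR-183 and 0.64 lower for rno-miR-96 than the mean of those 5. Without it the 48 h difference of rno-miR-182 was -0.20 (95% interval -0.33 to -0.07, limma adjusted p = 0.00761), that of rno-miR-183 was 0.12 (-0.03 to 0.26, adjusted p = 0.164) and that of rno-miR-96 was 0.00 (-0.22 to 0.22). Sham 0 h replicate 1 stood second, at 0.58, and was 0.95 lower for rno-miR-96. Without it the 0 h difference of rno-miR-96 was 0.06 instead of 0.22.

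Within scans, which were balanced for treatment, rno-miR-183 was higher in IR in all 3 scans at 24 h (0.38, 0.41 and 0.39) and at 7d (0.31, 0.35 and 0.28). At 48 h its differences were 0.45, 0.30 and -0.01, the first of these scans holding the array that stands apart. rno-miR-182 was lower in IR in all 3 scans at 48 h, by 0.66, 0.16 and 0.32. rno-miR-96 was lower in all 3 scans at 7d, by 0.18, 0.21 and 0.04, and had mixed signs at 0 h, 24 h and 48 h. Each scan held 1 to 3 arrays per group.

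Averaged over the 5 times, rno-miR-183 was 0.24 higher in IR (SE 0.04, 95% interval 0.16 to 0.32, limma adjusted p = 8.22e-07), rno-miR-182 was 0.12 lower (-0.21 to -0.03, adjusted p = 0.0128) and rno-miR-96 differed by 0.07 (-0.03 to 0.17, adjusted p = 0.220). This average passed for 76.7% of the 159 tested miRs, so the 2 of 3 members that passed were near the general share. With normexp the average was -0.27 for rno-miR-183 and 0.17 for rno-miR-182, and with slide as a block it was 0.00 for rno-miR-183 (adjusted p = 0.981). A change of the IR minus sham difference between times was tested with limma's F test, which called 39% of all tested miRs and none of the 3 members (adjusted p = 0.0808 for rno-miR-182, 0.217 for rno-miR-183 and 0.262 for rno-miR-96).

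Over time in the sham groups, rno-miR-183 was the member with a difference that passed. Against sham at 0 h its value was -0.04 at 2 h, -0.20 at 24 h, -0.29 at 48 h and -0.32 at 7d. The last of these passed (SE 0.09, limma adjusted p = 0.0279). At 2 h and 24 h 0 of the 159 tested miRs passed by adjusted p, with 1 and 25 at an unadjusted p under 0.05, and 0.629% passed at 48 h and 10.1% at 7d. At 7d 5 of 6 sham arrays were below every sham array of 0 h. rno-miR-96 was 0.25 higher at 24 h and 0.24 higher at 7d than in sham at 0 h (adjusted p = 0.230 and 0.187), and rno-miR-182 stayed between -0.14 and 0.12 (adjusted p of at least 0.411). The IR groups of rno-miR-183 averaged 13.14, 13.08, 13.21, 12.97 and 13.01 from 0 h to 7d, so the IR minus sham differences at 24 h to 7d were taken against sham means that were 0.20 to 0.32 lower than sham at 0 h. These comparisons share their sham arrays with the IR comparisons. With slide as a block the 7d sham difference was 0.05 (adjusted p = 0.999), the exact permutation test gave an adjusted p of 0.0529, and leaving out any of 6 single sham arrays (0 h replicates 1, 3, 4 and 5, 7d replicates 3 and 6) ended the call.

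The array carried several probes per member, and those for rno-miR-183 differed in their response. Each of its probes was printed at 10 spots; the longer, spanning 19 bases, gave a median of 91.5% of its total signal and the shorter, spanning 18 bases, 8.55%. All 600 spots of each probe over the 60 arrays were well above background, and none was saturated. The longer probe was 0.44 higher in IR at 24 h, 0.29 higher at 48 h and 0.37 higher at 7d, with all 6 IR arrays above all 6 sham arrays at 24 h and 7d. The shorter probe differed by -0.03, -0.15 and -0.18 at the same times, with 4 of 6 IR arrays below every sham array at 7d. The log2 ratio of the longer to the shorter probe on the same array, which does not depend on scaling, averaged 3.56 ± 0.11 in IR against 3.08 ± 0.15 in sham at 24 h (SD, n = 6 each), 3.51 ± 0.05 against 3.07 ± 0.09 at 48 h and 3.51 ± 0.09 against 2.96 ± 0.24 at 7d. IR and sham arrays did not overlap in this ratio at 48 h and 7d, and 5 of 6 IR arrays were above every sham array at 24 h. At 0 h and 2 h the mean ratios differed by 0.09 and 0.16, and the ranges overlapped. The higher total signal of rno-miR-183 in IR was thus that of the longer probe, and which probe follows the level of the miR was not tested.

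The other members had smaller gaps between probes. The longer probe of rno-miR-96 (21 bases, 61.3% of the signal) differed between IR and sham by 0.02 at 24 h, 0.17 at 48 h and -0.08 at 7d. The shorter (20 bases, 38.7%) differed by -0.05, 0.01 and -0.25 at these times. The shorter probe was lower on all 6 IR arrays than on any sham array at 7d. The log2 ratio of the longer to the shorter probe of rno-miR-96 was, as for rno-miR-183, higher in IR, by 0.16 at 48 h (5 of 6 IR arrays above every sham array) and by 0.17 at 7d (4 of 6). For rno-miR-182 the brightest probe, with 90.9% of the signal, was 0.37 lower in IR at 48 h, and the second, with 8.03%, was 0.49 lower with all 6 IR arrays below all sham arrays. The third probe of rno-miR-182 gave 1.02% of the signal, and only 146 of its 420 spots were well above background. The 48 h fall of rno-miR-182 therefore had the same direction on all 3 of its probes.

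**Figure D3:**
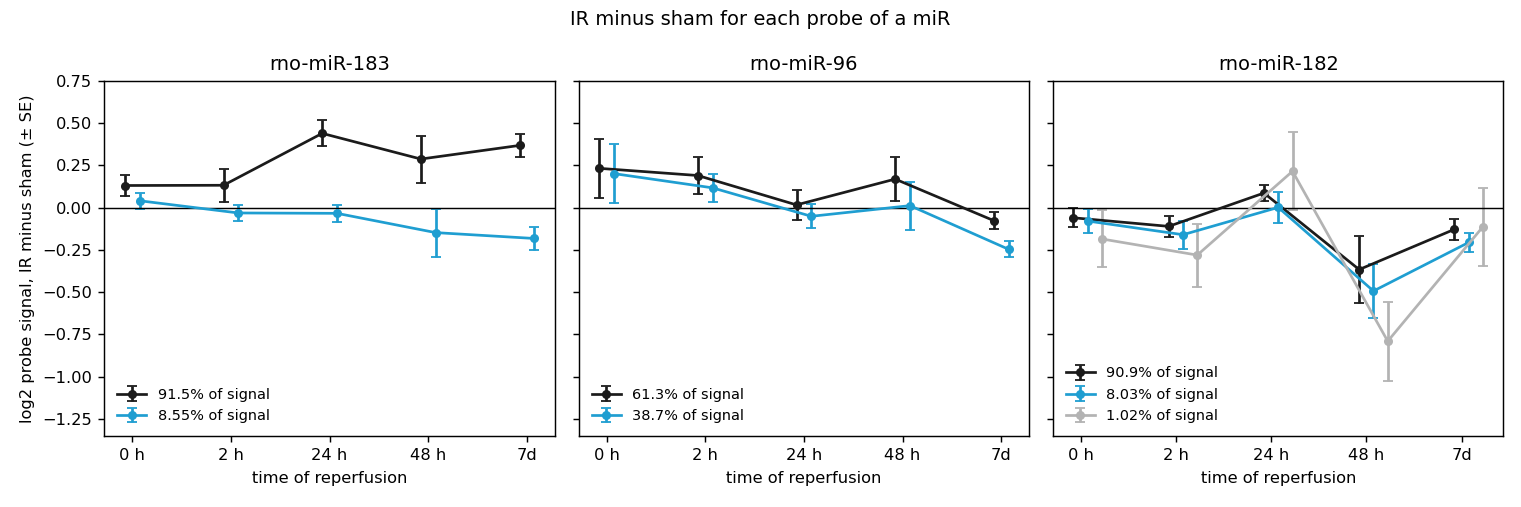
Difference in log2 probe signal, IR minus sham, by time of reperfusion, for every probe of the 3 miRs, scaled like the total signal. Bars are the standard error from 6 arrays against 6, and the legend gives each probe's median share of the miR's signal. The probes of rno-miR-183 part from 24 h on (0.44 against -0.03 at 24 h), while those of rno-miR-96 part less (0.17 against 0.01 at 48 h, -0.08 against -0.25 at 7d).

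Since a ratio within an array does not depend on the scaling of that array, rno-miR-183 and rno-miR-96 were also tested relative to rno-miR-182. In sham at 48 h the log2 ratio of rno-miR-183 to rno-miR-182 had a lowest, median and highest value of 1.25, 3.11 and 3.15, and in IR 3.17, 3.43 and 3.62. At 7d the values were 2.89, 3.04 and 3.14 in sham and 3.28, 3.53 and 3.67 in IR. IR and sham did not overlap at either time, and at 24 h 4 of 6 IR arrays were above every sham array. The difference was 0.19 at 0 h, 0.23 at 2 h, 0.31 at 24 h, 0.63 at 48 h and 0.45 at 7d. It passed at 48 h (SE 0.16, limma adjusted p = 0.00103) and 7d (SE 0.16, adjusted p = 0.0160) but not at 24 h (adjusted p = 0.0845). Relative to rno-miR-182, 12.7% of the other 158 tested miRs passed at 0 h, 7.59% at 2 h, 52.5% at 24 h, 40.5% at 48 h and 49.4% at 7d. Without sham 48 h replicate 1 the 48 h difference was 0.32 (adjusted p = 0.00157). With normexp the ratio was lower in IR, by a difference of -0.49 at 48 h (adjusted p = 0.0704) and -0.71 at 7d (adjusted p = 0.00893). With slide as a block it was 0.31 and 0.08 (adjusted p = 0.402 and 0.882). With array brightness as a covariate it was 0.59 at 48 h (limma adjusted p = 0.00899) and 0.36 at 7d (adjusted p = 0.385). The ratio is free of the scaling, but it moved with array brightness over the 60 arrays (Pearson's r = -0.47).

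rno-miR-96 relative to rno-miR-182 differed by 0.28 at 0 h, 0.28 at 2 h, -0.09 at 24 h, 0.49 at 48 h and -0.01 at 7d. Only 48 h passed (SE 0.18, limma adjusted p = 0.0226), and without sham 48 h replicate 1 the difference was 0.20 (95% interval -0.06 to 0.46, adjusted p = 0.224). With normexp the 48 h value was -0.55. The ratio of rno-miR-183 to rno-miR-96, the pair of 205 bases, was described without a test. Its mean was 0.71 ± 0.13 in IR and 0.30 ± 0.22 in sham at 24 h (log2, SD, n = 6 each) and 0.66 ± 0.08 against 0.20 ± 0.16 at 7d, when the groups did not overlap. At 48 h it was 0.69 ± 0.17 against 0.55 ± 0.18 with overlap, and scan 3 had the opposite sign there (-0.25) and at 24 h (-0.04, 1 array per group). At 0 h and 2 h it differed by less than the SD of the sham group.

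**Figure D4:**
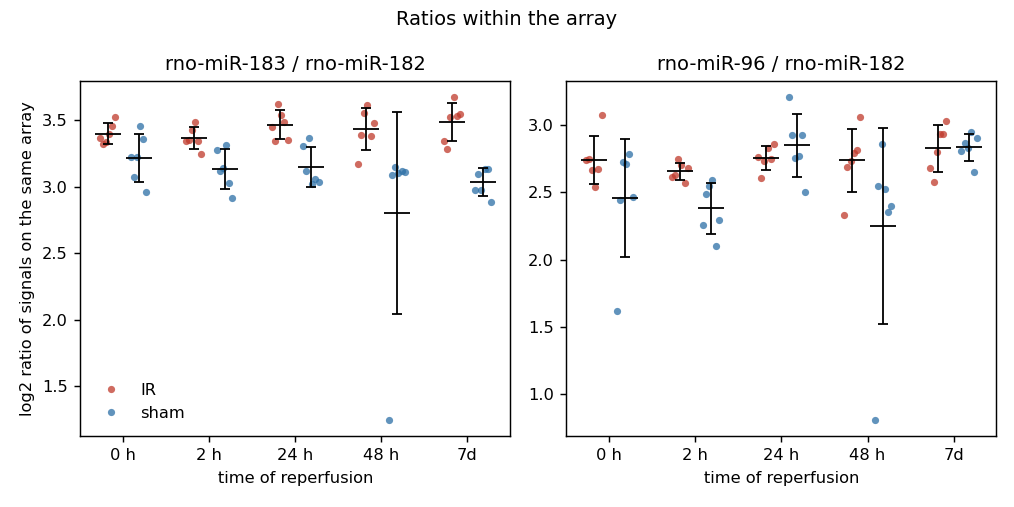
Log2 ratio of rno-miR-183 and of rno-miR-96 to rno-miR-182 on the same array, by time of reperfusion. Each point is 1 array (6 per group, red for IR, blue for sham) and black bars are the mean and SD. At 7d the rno-miR-183 ratio is 3.28 to 3.67 in IR and 2.89 to 3.14 in sham, and the lowest points of both panels (1.25 and 0.81) are sham 48 h replicate 1.

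The spread of the 3 members from rat to rat was like that of other miRs. The SD within groups, pooled over the 10 groups, was 0.15 for rno-miR-183, 0.20 for rno-miR-96 and 0.17 for rno-miR-182 (log2), near the median of 0.17 over the 57 miRs detected everywhere. That of rno-miR-182 was partly set by the scaling, which used the signal of this miR itself on some arrays. After group means were taken out, Pearson's r over 60 arrays was 0.37 between rno-miR-183 and rno-miR-96, -0.40 between rno-miR-183 and rno-miR-182 and -0.40 between rno-miR-96 and rno-miR-182, and Spearman's rho was 0.28, 0.02 and -0.19. Without sham 48 h replicate 1 and sham 0 h replicate 1 the values of r were 0.27, 0.10 and -0.17. All points share the scaling of their array. Over the 60 arrays the log2 signal of rno-miR-183 had a Pearson's r of -0.55 with array brightness, against -0.15 for rno-miR-96 and 0.18 for rno-miR-182. Once group means were taken out, r was -0.25, -0.18 and -0.11 in the same order. For the log2 ratios of rno-miR-183 to rno-miR-182, rno-miR-96 to rno-miR-182 and rno-miR-183 to rno-miR-96, r with brightness was -0.47, -0.20 and -0.33. These values were -0.07, -0.05 and -0.02 with group means taken out.

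The miRs whose log2 signal was most like the mean of the 3 members over the 60 arrays were rno-miR-34a (Pearson's r = 0.55), rno-miR-29a (0.53), rno-let-7i (0.50), rno-miR-29c* (0.50) and rno-miR-151 (0.44). With group means taken out these values were 0.37, 0.44, 0.39, 0.35 and 0.30. The first 4 kept a place among the 5 highest and rno-miR-151 was in place 8. The same scaling enters both sides of each of these correlations.

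Other retinal miRs were set beside the cluster from lists of known expression. rno-miR-204 and rno-miR-211, which share a seed and respond to light in the mouse retina as the cluster does, passed by adjusted p in 1 of 10 differences, rno-miR-204 at 24 h (-0.27, SE 0.10, limma adjusted p = 0.0264). Of the 8 neuronal miRs, 6 passed by adjusted p with a lower level in IR at 24 h, 3 at 48 h and 3 at 7d, where 60.4%, 54.7% and 59.7% of all tested miRs passed in either direction. Among them rno-miR-124, the most widespread miR of neurons, differed by 0.02, -0.11 and -0.03 at these times (adjusted p of at least 0.449), rno-miR-9 by -0.37 at 24 h (adjusted p = 0.0376) and rno-miR-9* by -0.26 at 24 h (adjusted p = 0.0432). rno-miR-129 was lower at 48 h (-0.29, adjusted p = 0.0475). The other passes were of rno-miR-128, rno-miR-138, rno-miR-153 and rno-miR-218, named after their values were seen. At 24 h these were detected on 4, 0, 0 and 2 of 6 IR arrays. At 7d the first 3, the only ones of the list that passed there, were detected on 5, 0 and 0. rno-miR-138 and rno-miR-153 had 6 of 6 arrays detected only in sham at 7d, by which they entered the test. The part of undetected values in these counts was not tested.

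Inner retina and glial lists held miRs in both directions. rno-miR-181a, a miR of ganglion and amacrine cells, was lower in IR by 0.30 at 24 h, 0.66 at 48 h and 0.46 at 7d (limma adjusted p = 0.0272, 9.56e-06 and 0.000908), and rno-miR-181b was 0.51 lower at 48 h (adjusted p = 7.38e-05). By adjusted p, 60.4% of all 159 tested miRs passed in either direction at 24 h, 54.7% at 48 h and 59.7% at 7d. Of the 4 miRs of the rno-miR-181 family, 2 passed as lower and 1 as higher at 24 h, 3 as lower at 48 h and 2 as lower at 7d. These counts were not tested against those shares. The higher miR was rno-miR-181d, named after its values were seen, which also passed as higher at 0 h (0.55, adjusted p = 0.00936) and 2 h (0.63, adjusted p = 0.00475). At 24 h it was detected on 2 of 6 IR arrays. rno-miR-181c, also among those counted as lower, was detected on 4 of 6 IR arrays at 24 h and 2 of 6 at 7d. Of the 4 glial miRs, rno-miR-125b-5p was lower by 0.42, 0.47 and 0.43 at 24 h, 48 h and 7d (adjusted p = 0.000249, 4.82e-05 and 0.000168), rno-miR-99a was 0.61 higher at 7d (adjusted p = 2.19e-06) and 0.24 higher at 48 h (adjusted p = 0.0475), and rno-miR-125a-5p was within 0.13 of sham at every time. The difference between these lists and the cluster was not tested. The median over all 159 tested miRs was -0.13 at 24 h, -0.15 at 48 h and -0.15 at 7d.

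Of the markers of other cells, named here after their values were seen where they were not detected on all arrays, rno-miR-206 of skeletal muscle moved with treatment. It was detected on 57 of 60 arrays and its log2 difference was 2.04, 2.33, 1.91, 1.96 and 1.34 from 0 h to 7d (limma adjusted p of at most 0.00577). The other muscle miRs, rno-miR-1, rno-miR-133a and rno-miR-133b, were detected on 11, 0 and 7 arrays. Of the vessel markers rno-miR-126 was detected on 48 arrays, rno-miR-143 on 58 and rno-miR-145 on none. Only rno-miR-126 at 24 h passed as lower (-0.52, limma adjusted p = 0.00496), when it was detected on 1 of 6 IR and 6 of 6 sham arrays. Of 6 leukocyte markers 1 was tested, rno-miR-150, detected on 23 arrays, among them 1 of 6 IR and 4 of 6 sham arrays at 48 h and 0 of 6 and 6 of 6 at 7d. Of the pigment epithelium list, which also holds rno-miR-204 and rno-miR-211, rno-miR-184 was detected on 33 arrays, at 7d on 0 of 6 IR and 6 of 6 sham arrays. All miRs counted, the IR arrays of 7d detected 59 to 125 miRs and the sham arrays 162 to 232. The level of the muscle list, which rested on rno-miR-206 as its only tested miR, ran from 7.05 to 7.93 in IR and from 5.29 to 5.96 in sham at 24 h (log2), and from 6.54 to 7.32 against 5.23 to 6.05 at 7d. The summed level of the vessel list ran from 5.55 to 6.58 in IR and from 6.32 to 6.601 in sham at 24 h, and the leukocyte list from 2.63, the floor, to 3.12 in IR and from 3.32 to 4.03 in sham at 7d. Their part in the values of the cluster was not tested.

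The size of the cluster's differences moved with the scaling. Scaled to the 75th percentile over all miRs, the median of the 57 miRs detected everywhere lay at -0.32 at 24 h, -0.25 at 48 h and -0.30 at 7d, instead of -0.01, -0.10 and -0.10. On that scale rno-miR-183 differed by 0.08, 0.09 and 0.11, rno-miR-96 by -0.32, -0.05 and -0.34 and rno-miR-182 by -0.23, -0.53 and -0.33. With the members left out of the miRs that set the 75th percentile, rno-miR-182 differed by 0.04, -0.41 and -0.24. Relative to the median of the 57 miRs, rno-miR-183 was 0.40, 0.34 and 0.42 higher at these times under every scaling by a single factor per array. Such a factor cancels in this quantity, so the equal values are no test of the scaling. With quantile normalization the quantity was 0.12, 0.13 and 0.22. With normexp, which works on each spot before scaling and here also gave each probe equal weight, the same quantity was -0.30, -0.47 and -0.47. With equal probe weight but no normexp it was 0.25, 0.19 and 0.20.

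**Figure D5:**
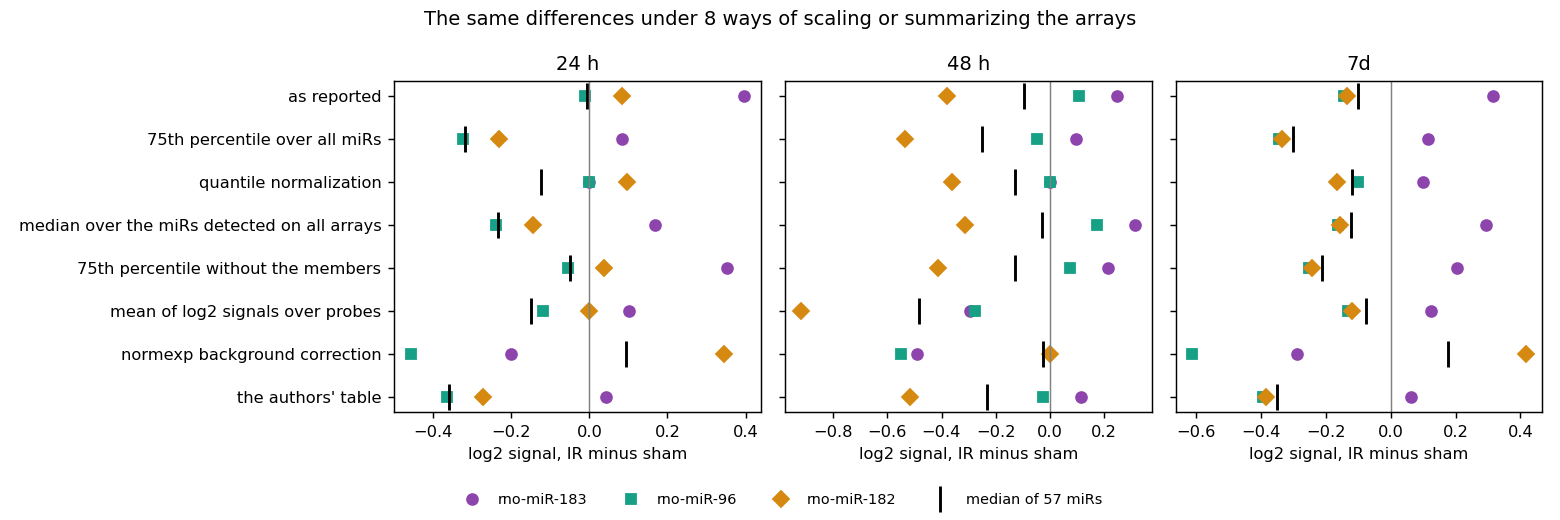
Difference in log2 signal, IR minus sham, at 24 h, 48 h and 7d (panels) under 8 ways to scale or summarize the arrays (rows). Symbols are means of 6 arrays minus means of 6 arrays for the 3 miRs, and the black tick is the median of the 57 miRs detected on all arrays. rno-miR-183 lies to the right of the tick in all rows but normexp, where it lies at -0.20, -0.49 and -0.29.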

How the data were processed

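Total RNA of whole retinas was labelled with Cy3 and hybridised to 1-colour Agilent miRNA arrays. Per the file headers, the authors extracted spot intensities with Agilent Feature Extraction, with background and spatial trend subtracted and with flags for detection and saturation. The authors' table holds log2 values of 219 features, scaled by the authors in GeneSpring to the 75% quantile and filtered by flag. Here the total signal per miR was divided by its array's 75th percentile, taken over the 57 miRs found on every array. It was then set back to array units by a common factor, floored at 6.20 units and log2-transformed. The floor was the median over the 60 arrays of each array's lowest scaled signal of a detected miR. The 159 miRs that had at least 1 group with 6 of 6 arrays detected were fitted with limma 3.58.1 (R 4.3.3) over all 60 arrays and 10 groups, with Benjamini-Hochberg adjustment per comparison, after the fit was tested on simulated data. Calls needed a 2-fold change either way with an adjusted p up to 0.05, as in the study, or that adjusted p alone. Exact permutation tests were two-sided, with all splits of 12 arrays. The number of arrays limits the precision.

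Named are the 3 members, the 5 always-detected miRs most correlated with their mean, and lists of retinal and other cell types, by count and with values for the always-detected. The members and the lists were chosen with earlier results of these data known. Alternatives were other scalings, normexp (offset 50, with log2 signals averaged over spots and probes), probe means and other sets of tested miRs. Further alternatives were blocks for replicate number, slide and scan, brightness as a covariate, trend with a robust prior, the authors' table and leaving out single arrays.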

Additional observations from a re-analysis of the deposited data

Results flagged for a closer look

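In 10 of 50 sets of 6 arrays (the 3 members and the ratios of rno-miR-183 and rno-miR-96 to rno-miR-182 in 10 groups), the highest or lowest array lay farther from the nearest other than Dixon's test allows at the 95% level. Chance gives such a gap in about 1 of 20 sets. These sets were not independent, since the ratios reuse the members' values and the sets of a group share arrays. The count was therefore not tested against that share. Sham 48 h replicate 1 accounted for 4 of them: its log2 signal was 12.07 for rno-miR-183 (nearest other 12.77) and 10.82 for rno-miR-182 (nearest other 9.81), and its log2 ratios to rno-miR-182 were 1.25 for rno-miR-183 (nearest other 3.09) and 0.81 for rno-miR-96 (nearest other 2.36). Sham 0 h replicate 1 accounted for 2, with 11.46 for rno-miR-96 (nearest other 12.33) and a ratio of rno-miR-96 to rno-miR-182 of 1.62 (nearest other 2.44). The others were rno-miR-183 at 13.11 in sham 24 h replicate 3, rno-miR-96 at 12.43 in IR 7d replicate 6, and rno-miR-182 at 9.97 in IR 2 h replicate 2 and at 9.73 in sham 2 h replicate 4.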

How the results depend on the processing

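No member's level passed 2-fold with adjusted p at any time under the alternatives run, except without normalization, where 9 of 15 differences did and 12 passed by adjusted p. By adjusted p alone 4 passed as reported, 1 with quantile normalization, 2 with the 75th percentile without the members, 0 with slide as a block and 1 with brightness as a covariate. The quantile count could not include rno-miR-183 or rno-miR-96 at 0 h, 2 h, 24 h or 48 h, where their differences were exactly 0. Counts of 6 with the 75th percentile over all miRs, normexp and the authors' table each include calls gained. In the authors' table these were rno-miR-182 at 0 h, 24 h and 7d (-0.37, -0.27 and -0.38, limma adjusted p = 0.00441, 0.0194 and 0.00144) and rno-miR-96 at 24 h and 7d (-0.36 and -0.39, adjusted p = 0.0160 and 0.0103). With normexp rno-miR-96 was called at 24 h, 48 h and 7d (-0.46, -0.55 and -0.61), with probe means at 48 h (-0.28, adjusted p = 0.0355), and from the arrays of 7d alone at 7d (-0.14, adjusted p = 0.0373). Values below are log2 differences, IR minus sham unless named otherwise, and the cause of these shifts was not tested. Without normalization they were -1.12 (rno-miR-182 at 0 h), -2.07, -1.76 and -2.16 (rno-miR-182, rno-miR-183 and rno-miR-96 at 24 h), -0.95 and -1.09 (rno-miR-183 and rno-miR-96 at 48 h), -2.72, -2.27 and -2.72 (rno-miR-182, rno-miR-183 and rno-miR-96 at 7d), and -1.15 and -1.32 for the means over time of rno-miR-183 and rno-miR-96, with adjusted p of 1.37e-05, 3.03e-05 and 1.40e-06 for the change over time of rno-miR-182, rno-miR-183 and rno-miR-96.

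For rno-miR-183 at 24 h, 48 h, 7d, as the mean over time and for sham 7d minus sham 0 h, the calls were lost with the 75th percentile over all miRs (0.083, 0.094, 0.11, 0.035 and -0.35), quantile normalization (0, 0, 0.10, 0.020 and -0.10) and the authors' table (0.042, 0.11, 0.064, 0.026 and -0.35), and lost or reversed with probe means (0.10, -0.30, 0.12, -0.031 and -0.20), normexp (-0.20, -0.49, -0.29, -0.27 and -0.16) and slide as a block (0.066, -0.082, -0.065, 0.0042 and 0.046). With brightness as a covariate the first 4 were 0.25, 0.16, 0.14 and 0.14. Scaling to the median lost 24 h (0.17) and the sham difference (-0.33), which was 0.023 without normalization, and the percentile without the members lost 48 h and 7d (both 0.21). The arrays of 48 h alone lost rno-miR-183 and rno-miR-182 (0.25 and -0.38), and the permutation test lost rno-miR-183 at 48 h (0.25) and the sham difference (-0.32). For rno-miR-182, normexp gave -0.00037 at 48 h and a mean of 0.17, slide as a block -0.39 and -0.15, and brightness a mean of -0.17. The change over time of rno-miR-182 passed with quantile normalization (adjusted p = 0.0418), probe means (0.000801) and scan as a block (0.0461), and that of rno-miR-183 with probe means (0.0436). Quantile normalization gives a miR the same value wherever its rank on the array is the same. It put rno-miR-183 and rno-miR-96 at exactly 0 at 24 h and 48 h, so it could not show a change in their level there.

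Relative to rno-miR-182, normexp gave -0.54, -0.49 and -0.71 for rno-miR-183 and -0.80, -0.55 and -1.03 for rno-miR-96 at 24 h, 48 h and 7d. Slide as a block lost rno-miR-183 at 48 h and 7d (0.31 and 0.077) and rno-miR-96 at 48 h (0.45). Brightness lost rno-miR-96 at 48 h (0.45) and rno-miR-183 at 7d (0.36), probe means lost rno-miR-183 at 7d (0.24), and the permutation test called rno-miR-183 at 24 h (0.31) and lost rno-miR-96 at 48 h (0.49).

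Leaving out single arrays reversed no call. The call of rno-miR-183 at 48 h was lost without IR 48 h replicate 3 (0.21) or sham 48 h replicate 1 (0.12), and that of rno-miR-96 relative to rno-miR-182 at 48 h without IR 48 h replicate 6 (0.42) or sham 48 h replicate 1 (0.20). The sham difference of rno-miR-183 at 7d was lost without sham 0 h replicates 1, 3, 4 or 5 or sham 7d replicates 3 or 6. The change over time passed for rno-miR-182 without IR 48 h replicate 1 or sham 48 h replicates 3 or 4 and for rno-miR-183 without sham 48 h replicate 1. The ranges were 0.12 to 0.29 for rno-miR-183 at 48 h, -0.36 to -0.28 for its sham difference, 0.20 to 0.61 for rno-miR-96 relative to rno-miR-182 at 48 h, and adjusted p of 0.0407 to 0.128 and 0.0287 to 0.302 for the change over time of rno-miR-182 and rno-miR-183. Of differences that had not passed, 23 of 187 values under the other alternatives and 6 of 132 with an array left out had the opposite sign. Replicate numbers name different rats and were not used to pair the samples. Of 30 same-numbered pairs, 15 deviated with a correlation over 0.1 (range -0.45 to 0.60). Differently numbered pairs were not set beside them, so these values cannot decide whether the number carries a shared effect. The numbers went in part with the scan: every replicate 1 was in scan 1 and every replicate 6 in scan 3. The fit with a replicate block changed no call (rno-miR-183 at 24 h 0.40, limma adjusted p = 0.000123).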
